A study of Mus musculus with 4 samples.

Results

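The 8 genes that encode the JUN proteins (Jun, Junb, Jund), the FOS proteins (Fos, Fosb, Fosl1, Fosl2) and ATF3 were examined in peak lists from an assay for transposase-accessible chromatin (ATAC-seq), in which a transposase cuts open DNA. Peaks of the 4 libraries that overlapped were merged into 40910 union regions, and each region was given to the nearest start of a protein-coding transcript within 100 kb. This left 35038 regions at 15060 genes, of which 32 belonged to the 8 AP-1 genes. Nearness does not show that a region controls the gene.

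All cells were wild-type ES-E14TG2a, a mouse embryonic stem cell (mESC) line, taken through a cardiogenic differentiation that also yields endothelial cells. The 2 libraries of day 2 (d2) came from cells not yet exposed to cytokines. The 2 libraries of day 4 (d4) came from cells that had received Activin A, BMP4 and VEGF. The replicates of a time point came from independent differentiation experiments of this line, with nothing sorted, so fewer cells with an open region and less signal per cell cannot be told apart. An exact two-sided permutation test of 2 against 2 libraries reaches p = 0.33 at the smallest, and the time points are compared here without a p-value.

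AP-1 factors are basic leucine zipper proteins that bind DNA as dimers, for example of a JUN with a FOS protein. Most FOS proteins and JUNB are made quickly and briefly after growth factor or stress signals through MAP kinases, whereas JUND is present more steadily. Serum response factor (SRF) and its partners switch on Fos at CArG boxes, and JUN can act on its own promoter through a site related to the cyclic AMP response element (CRE). In endothelial cells AP-1 is known to act in the response to VEGF.

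The lists held 26865 and 24544 peaks at d2 and 22511 and 21299 at d4, in replicates 1 and 2. Genome-wide background coverage, solved from the deposited values, put the depth of the libraries at 0.752, 0.640, 1.0 and 0.985 of the deepest, in the same order. Each summit's pileup, the number of fragments or reads stacked there, was solved in the same way and divided by the library's median over regions called in all 4 libraries. That median was 22 and 27 at d2 and 25 and 24 at d4, and the result is called the scaled pileup, where 1 is the level of a typical region open throughout. Of 6 pluripotency genes, a promoter peak was present at 4 and 6 in the d2 libraries and at 1 and 2 in the d4 libraries. Of 6 mesoderm genes it was present at 2 and 5 at d2 and at 2 and 4 at d4, with none at Tbx6. Of 7 endothelial genes it was present at 3 and 4 at d2 and at 5 and 2 at d4, with none at Tie1. Of 5 haematopoietic genes 2 had one in every library. The neural and the endoderm list of 4 genes each had 3 at d2 and 2 at d4, and 4 mesenchymal genes had 2, 2, 3 and 1. In these counts pluripotency genes set d2 apart, and mesodermal and endothelial promoter peaks did not set d4 apart. Promoter peaks were fewer at d4 in general. Of 15640 promoter regions near all genes, 13068 and 13466 had a peak in the d2 libraries and 11231 and 11118 in the d4 libraries. Over all regions of the lists, 5 were gained and 1 lost of 25 at mesoderm genes, 2 and 0 of 24 at endothelial genes, and 1 and 3 of 20 at pluripotency genes. These were 2 and 2 of 16 at haematopoietic, 1 and 7 of 24 at neural, 2 and 4 of 21 at endoderm and 2 and 1 of 14 at mesenchymal genes. Over all regions within 100 kb of a protein-coding start, 8.48% were gained and 13.2% lost. The part of cell makeup in the values below was not tested.

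Most AP-1 regions that were found repeatedly were open at both time points. Of the 32 regions, 15 were shared, with a peak in all 4 libraries, which is 46.9% against 31.9% of all regions. Another 2 were gained, with a peak in both d4 libraries and neither d2 library (6.25% against 8.48%), and 2 were lost, the reverse (6.25% against 13.2%). The other 13 had a peak in 1 library (10 regions) or in 3 libraries (3 regions). Of the 11 promoter regions, those within 1000 bp of a start, 7 were shared (63.6% against 59.8% of all promoter regions), 1 was gained (9.09% against 1.69%) and 1 was lost (9.09% against 8.55%). Of the 21 distal regions, 8 were shared (38.1% against 9.49%), 1 was gained (4.76% against 13.9%) and 1 was lost (4.76% against 17%). In percentage points, the share of distal regions open throughout lay farthest from the background. This contrast rests on the rule for a promoter. With promoters within 2500 bp, 9 shared regions were promoters instead of 7. With starts of any gene type, 12 regions were shared and 8 of them were promoters. The background shares were not computed under these rules. Gained and lost counts of 1 or 2 carry little precision. Leaving out d2 replicate 2 raised the lost regions to 8, and the gained ones numbered 4, 4 and 5 without d2 replicate 1, d4 replicate 1 and d4 replicate 2. Leaving out a library also loosens the rule for these classes, since 1 library then stands for its time point. The shares of all regions were not computed with a library left out.

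**Figure D1:**
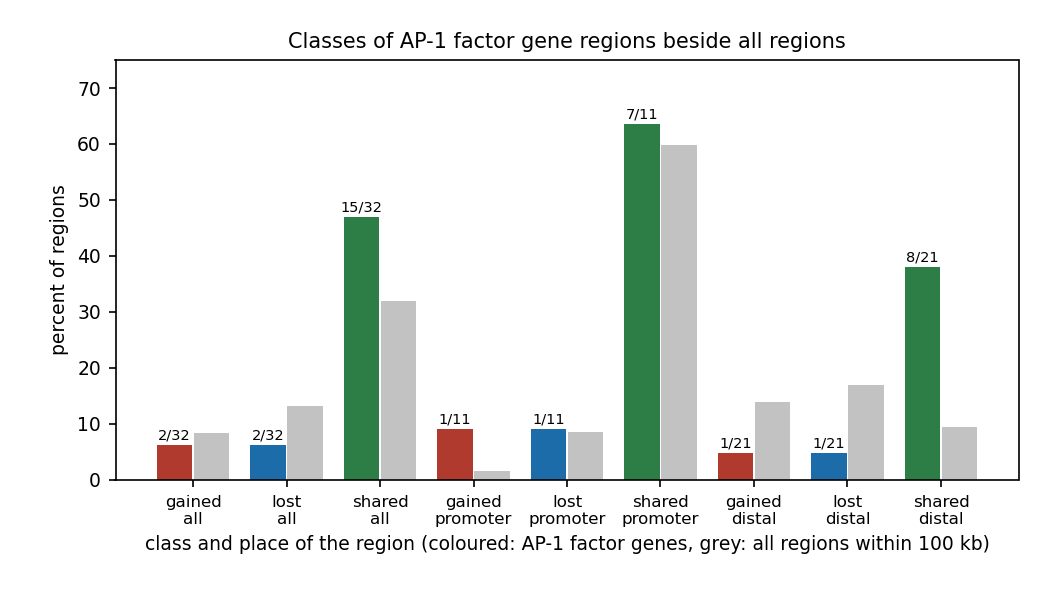
Percent of regions in each class (y axis) for the AP-1 factor genes (coloured bars, with counts) and for all regions within 100 kb of a protein-coding start (grey bars), for all, promoter and distal regions. Distal AP-1 regions were shared in 8 of 21 cases, or 38.1%, against 9.49% of all distal regions.

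The genes differed in how many regions lay nearest to them. Jun had 7, Fos and Fosb 6 each, Atf3 4, Junb and Fosl2 3 each, Jund 2 and Fosl1 1, where the median gene had 2. Jun had more regions than 95.9% of the genes with a region, and Fos and Fosb each had more than 93.5%. A peak was present in 25 and 18 of the 32 regions at d2, and in 23 and 21 at d4. The d2 replicates differed more from each other in this count than the d4 replicates did, and 5 of the 10 regions seen in 1 library only were those of d2 replicate 1.

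**Figure D2:**
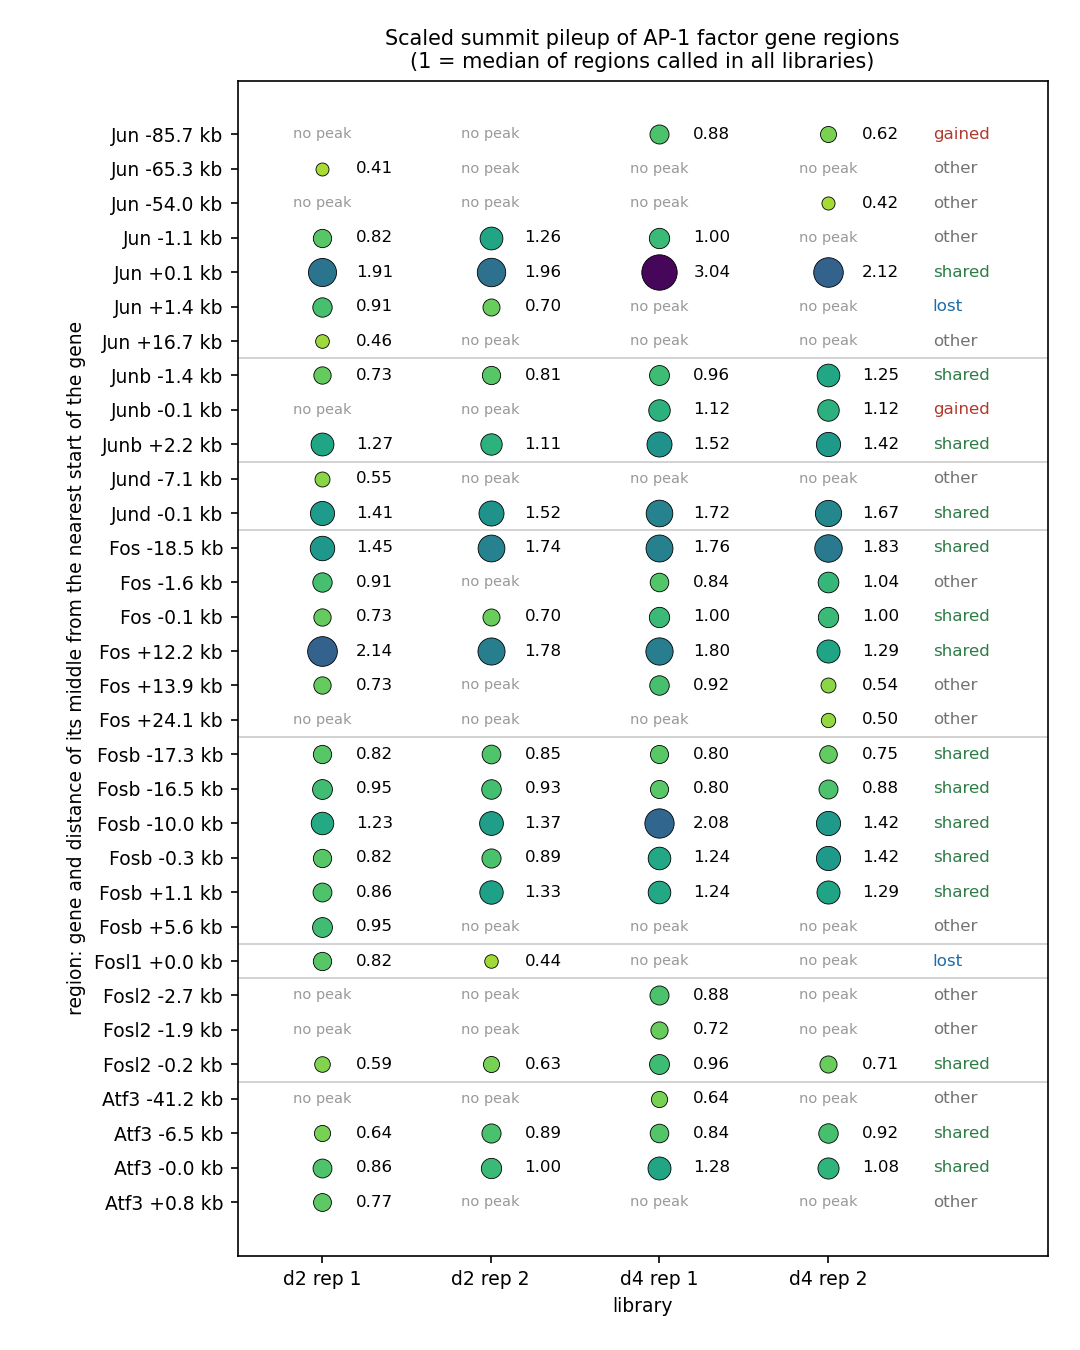
Scaled summit pileup (dot size, colour and printed value, no unit) of the 32 regions of the AP-1 factor genes (rows) in each library (columns), with the class of the region at the right. The largest value is 3.04 at the Jun start in d4 replicate 1, and the Junb start and the Fosl1 start are the promoter regions with peaks at only 1 time point.

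Among the JUN genes, Jun encodes the founding JUN protein. Of the 8 genes, it had the start region with the highest mean scaled pileup at both time points. By fold enrichment Jun lay below Jund in both d4 libraries, Fosb and Atf3 in d4 replicate 2, and Fosl1 in d2 replicate 1. The region at its start (ENSMUSG00000052684.4, minus strand) was chr4:95051533-95052642 in mm10 and spanned the start and 5' UTR of Jun and an exon of the antisense gene Junos. Its fold enrichment was 8.52 and 9.31 at d2 and 8.61 and 7.13 at d4. This is the summit pileup over the local background, with 1 added to each, as the authors' caller wrote it. The summit pileups were 42, 53, 76 and 51, and the scaled pileups 1.91, 1.96, 3.04 and 2.12, so both d4 values lay above both d2 values. At d2 the scaled pileup was 1.94 ± 0.0381 (SD, n = 2), and at d4 it was 2.58 ± 0.647 (SD, n = 2), a log2 difference of 0.42 with library pairs between 0.11 and 0.67. The spread at d4 came from replicate 1, since replicate 2 lay close to the d2 libraries. The fold enrichment did not share this order, since the local background was 4.05 and 4.80 at d2 and 7.94 and 6.30 at d4.

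The bases upstream of the Jun start are shown because they hold the CRE-like site through which JUN is known to act on its own gene. They are the part of the 300 bp around the highest summit that lies outside exons of the GENCODE annotation used and outside RefSeq mRNA exons, at chr4:95052223-95052376 on the minus strand, and capitals mark the CRE-like TGACATCA and the GATA site AGATAA.
Jun promoter: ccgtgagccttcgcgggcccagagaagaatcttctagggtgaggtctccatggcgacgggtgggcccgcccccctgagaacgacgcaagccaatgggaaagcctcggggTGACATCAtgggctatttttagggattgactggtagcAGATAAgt
TGACATCA lay 42 bp upstream of the start and was inside the 300 bp window of the summit in all 4 libraries. It was found around the summit of 1.25% of all promoter regions and of 2.04% of distal ones. The GATA site lay 6 bp upstream, and AGATAA or TGATAA was found at 6.48% of promoter regions.

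Jun was the only gene of the 8 with regions of every class. The region 1.1 kb upstream (chr4:95053208-95053425, overlapping a Junos exon) had fold enrichments of 3.78, 6.12 and 3.06 in both d2 libraries and d4 replicate 1. It had no peak in d4 replicate 2. The region 1.4 kb downstream (chr4:95050702-95051001, in the coding sequence of Jun) was lost, with fold enrichments of 4.12 and 3.47 at d2 and summit pileups of 20 and 19. These are low folds, at percentiles 0.294 and 0.00407 of their lists. The neighbouring Jun peak had a background of 7.94 and 6.30 at d4, and the smallest pileup called at such a background (within 10%) was 25 and 23, or 1.0 and 0.958 when scaled. The scaled d2 values of 0.909 and 0.704 lay below those limits, so no peak of that height was called at such a background at d4, and the missing d4 peaks do not show a lower level.

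The distal gained region lay 85.7 kb upstream of Jun, at chr4:95137717-95138140, and overlapped an exon of Junos in part. Its fold enrichment was 10.3 and 7.83 in d4 replicates 1 and 2, on summit pileups of 22 (95% Poisson interval 13.8 to 33.3) and 15 (8.40 to 24.7). Such intervals cover counting error only. The scaled pileup was 0.880 and 0.625, and the smallest pileup called anywhere at d2 was 6 in both libraries, or 0.273 and 0.222 when scaled. Both scaled d4 values lay above those limits, but the local limit at d2 is not known. Its sequence around the summit, trimmed of exons as before, is shown as the only distal gained sequence of the 8 genes. It runs from chr4:95137786-95138072 on the minus strand.
Jun distal gained region: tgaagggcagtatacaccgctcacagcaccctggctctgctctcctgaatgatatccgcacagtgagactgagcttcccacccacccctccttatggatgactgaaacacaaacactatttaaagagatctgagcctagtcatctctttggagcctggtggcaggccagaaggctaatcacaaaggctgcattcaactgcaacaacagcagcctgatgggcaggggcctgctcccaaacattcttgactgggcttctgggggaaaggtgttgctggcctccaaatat
None of the AP-1, CRE, CRE-like, CArG, GATA, ETS or TEAD letters searched was in this window. AGATAA or TGATAA was present in 60.0% of all 2705 distal gained regions. The remaining Jun regions had a peak in 1 library each, 65.3 kb upstream (fold enrichment 6.38 in d2 replicate 1), 54.0 kb upstream (5.29 in d4 replicate 2) and 16.7 kb downstream (7.01 in d2 replicate 1, with TGACATCA at 7 bp from its summit).

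Junb, an immediate early gene whose protein often restrains JUN, had the gained promoter. The region at its start (ENSMUSG00000052837.6, minus strand) was chr8:84978695-84978928 and reached into its 5' UTR. There was no peak in either d2 library, and the fold enrichment was 5.40 and 5.12 in the d4 libraries. These are low folds, at percentiles 10.6 and 6.31 of their lists, on local backgrounds of 4.37 and 4.47. The summit pileups were 28 (95% Poisson interval 18.6 to 40.5) and 27 (17.8 to 39.3), and both scaled pileups were 1.12. By pileup alone, this promoter stood at the level of a typical region open throughout. The nearest Junb peak at d2 had a background of 2.73 and 3.63, and the smallest pileup called at such a background was 12 and 15, or 0.545 and 0.556 when scaled. Both d4 values lay above those limits. A peak list gives no level under its threshold. These limits are the smallest pileups called near the background of a neighbouring peak, and the d2 background at the start itself is not known. A d2 level somewhat above them could therefore have gone uncalled.

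The promoter bases around that summit are shown because Junb was the only gene of the 8 whose start was called at d4 alone. They are at chr8:84978749-84978971 on the minus strand, with exons removed.
Junb promoter: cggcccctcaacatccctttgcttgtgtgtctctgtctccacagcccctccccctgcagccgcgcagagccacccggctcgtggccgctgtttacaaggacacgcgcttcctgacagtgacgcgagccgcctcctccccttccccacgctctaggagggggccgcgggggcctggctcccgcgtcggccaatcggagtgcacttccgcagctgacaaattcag
No AP-1, CRE, CRE-like, CArG, GATA, ETS or TEAD letters were found here, and so no base is in capitals. A CCAAT box lay 64 bp upstream of the start, and CCAAT was found at 34.2% of promoter regions.

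The 2 flanking Junb regions were open at both time points. The region 1.4 kb upstream (chr8:84979866-84980363, intergenic) had fold enrichments of 4.55 and 4.96 at d2 and 4.68 and 5.69 at d4. Its scaled pileups were 0.727, 0.815, 0.960 and 1.25, higher in both d4 libraries, with a log2 difference of 0.52 (pairs 0.24 to 0.78). The region 2.2 kb downstream (chr8:84976283-84976779, reaching an exon of Junb) had fold enrichments of 7.62, 6.87, 7.37 and 6.49. Its scaled pileups were 1.27 and 1.11 at d2 and 1.52 and 1.42 at d4, a log2 difference of 0.30 (pairs 0.15 to 0.45). A CArG box, CCATATATGG, lay 1 bp from the summit of this downstream region.

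Jund, the more steadily made JUN gene, had 2 regions. Its start region (ENSMUSG00000071076.6, plus strand; chr8:70698378-70699409) had fold enrichments of 7.78 and 8.02 at d2 and 8.87 and 7.75 at d4. The scaled pileups were 1.41, 1.52, 1.72 and 1.67, higher in both d4 libraries, with a log2 difference of 0.21 (pairs 0.13 to 0.29). A full CRE, TGACGTCA, lay 210 bp upstream of the start, in a set of letters found at 3.04% of promoter regions. The other Jund region, 7.1 kb upstream, had a fold enrichment of 5.39 in d2 replicate 1 only.

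**Figure D3:**
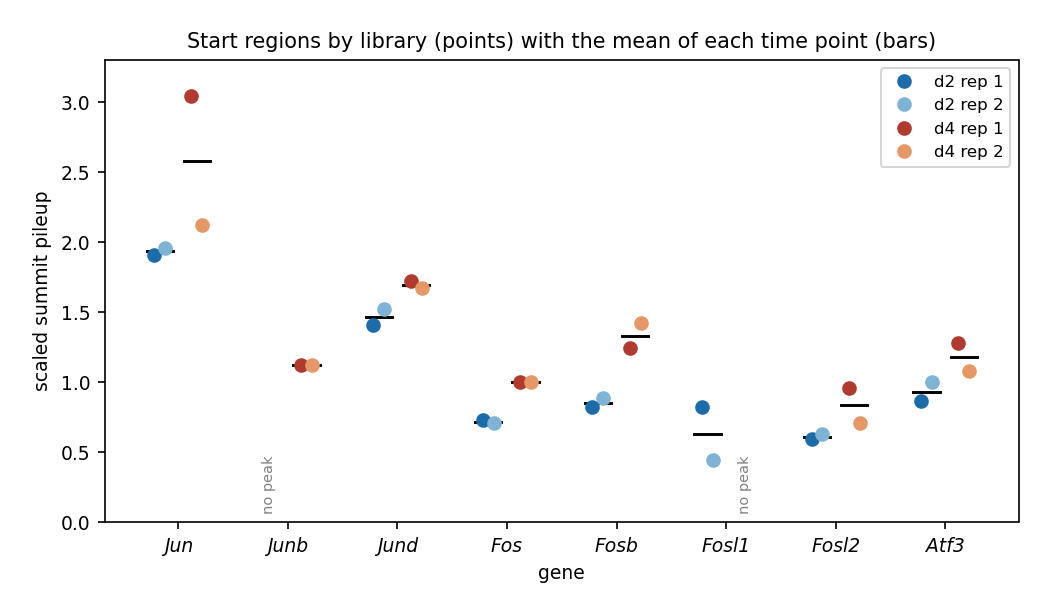
Scaled summit pileup (y axis, no unit) at the start region of each AP-1 factor gene (x axis), with a point for each library and a bar for the mean of 2 libraries. Jun and Jund are highest at both time points, Junb has peaks only at d4 and Fosl1 only at d2.

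Among the FOS genes, Fos, the classical immediate early gene, had 3 shared regions and none that was gained or lost. Its start region (ENSMUSG00000021250.13, plus strand) was chr12:85473493-85474156 and covered the 5' UTR and the first coding bases. Fold enrichment was 5.17 and 6.81 at d2 and 6.39 and 5.72 at d4. Summit pileups were 16 and 19 at d2 and 25 and 24 at d4, which scaled to 0.727, 0.704, 1.0 and 1.0. At d2 the mean was 0.715 ± 0.0167 (SD, n = 2), and at d4 it was 1.0 ± 0.0 (SD, n = 2), a log2 difference of 0.48 whose library pairs ran only from 0.46 to 0.51. Counting error is wider than this spread. The pileup of 16 has a 95% Poisson interval of 9.15 to 26 and that of 25 an interval of 16.2 to 36.9, and these overlap.

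The summits of the Fos start region differed in place. They lay 281 and 333 bp upstream of the start at d2, and 3 bp upstream and 64 bp downstream at d4. The stretch around the d2 replicate 2 summit is shown because it holds the CArG box of the serum response element, and the stretch next to the start because the d4 summits lay there. They run from chr12:85473407-85473706 and chr12:85473737-85473889, on the plus strand, and capitals mark the AP-1-like TGAATCA and the CArG box.
Fos upstream, d2 summit: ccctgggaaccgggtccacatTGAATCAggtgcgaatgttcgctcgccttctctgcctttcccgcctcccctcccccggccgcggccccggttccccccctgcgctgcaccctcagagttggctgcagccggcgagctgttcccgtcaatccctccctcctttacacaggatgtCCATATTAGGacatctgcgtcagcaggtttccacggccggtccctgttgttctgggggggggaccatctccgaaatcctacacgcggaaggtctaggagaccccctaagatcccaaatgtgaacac
Fos promoter, d4 summit: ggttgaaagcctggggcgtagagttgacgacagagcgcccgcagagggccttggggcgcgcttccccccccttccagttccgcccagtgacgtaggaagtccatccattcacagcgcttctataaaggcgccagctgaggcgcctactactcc
The CArG box, CCATATTAGG, was centred 304 bp upstream of the start. It fell inside the 300 bp around the summit in both d2 libraries and in neither d4 library. This search around each library's own summit was added after the values were seen. The summits rest on pileups of 16 to 25. The peak of d4 replicate 2, 664 bp wide, spanned the whole region and so still covered the box. A CArG box was found around the summit of 0.995% and 0.936% of the promoter peaks at d2 and of 1.14% and 1.23% at d4. AP-1 letters (TGANTCA) were in the window of d2 replicate 2 alone.

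Farther from Fos, the highest of its regions by mean scaled pileup lay downstream at d2 (1.96, against 1.60 at 18.5 kb upstream) and upstream at d4 (1.80, against 1.55). The region 12.2 kb downstream (chr12:85485773-85486336, intergenic) had fold enrichments of 14.6 and 15.1 at d2 and 11.9 and 9.48 at d4, at percentiles 95.9, 92.8, 84.2 and 66.7 of the folds in each list. Its scaled pileups were 2.14, 1.78, 1.80 and 1.29, so the time points overlapped, and the log2 difference of -0.34 had pairs from -0.73 to 0.02. It was the lowest of the 15 shared regions, and its sequence is shown for that reason, at chr12:85485926-85486225 on the plus strand, with a CArG box and an ETS site (CCGGAA, here on the other strand) in capitals.
Fos downstream region: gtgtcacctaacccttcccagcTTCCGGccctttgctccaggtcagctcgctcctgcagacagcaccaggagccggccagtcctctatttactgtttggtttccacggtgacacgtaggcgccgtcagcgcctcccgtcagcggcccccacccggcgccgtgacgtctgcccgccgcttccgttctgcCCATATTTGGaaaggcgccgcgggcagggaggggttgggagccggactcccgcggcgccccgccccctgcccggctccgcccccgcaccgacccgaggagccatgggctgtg
The CArG box, CCATATTTGG, lay 43 bp from the summit. The region 18.5 kb upstream (chr12:85455009-85455763, intergenic) had fold enrichments of 12, 15.3, 10.8 and 11.1. Its scaled pileups were 1.45, 1.74, 1.76 and 1.83, higher in both d4 libraries by a log2 difference of 0.17 (pairs 0.02 to 0.33), which was 0.12 above the median of all shared regions and turned to -0.04 against that median without d2 replicate 1. The regions 1.6 kb upstream (fold enrichments 6.40, 5.70 and 6.25) and 13.9 kb downstream (5.00, 6.05 and 4.13) had a peak in every library but d2 replicate 2. The smallest pileup called there at a like background was 10 and 11, or 0.370 and 0.407 when scaled. The region 24.1 kb downstream had a fold enrichment of 7.14 in d4 replicate 2 only.

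Fosb, which encodes a FOS protein close to FOS itself, had the largest difference of the shared regions. The region just upstream of its start (ENSMUSG00000003545.3, minus strand; chr7:19310114-19310555) had fold enrichments of 5.59 and 6.51 at d2 and 7.51 and 8.00 at d4. Summit pileups were 18, 24, 31 and 34, and scaled pileups were 0.818 and 0.889 at d2 and 1.24 and 1.42 at d4. All d4 values were above all d2 values on the fold, the pileup and the scaled pileup. This order did not hold with pileups divided by the genome-wide background. The log2 difference was 0.64, with pairs from 0.48 to 0.79, where the 10th to 90th percentile of all shared regions ran from -0.50 to 0.58. The sequence around the summit of d4 replicate 2 is shown because of this difference and its CArG box, in capitals. It is chr7:19310257-19310556 on the minus strand.
Fosb promoter: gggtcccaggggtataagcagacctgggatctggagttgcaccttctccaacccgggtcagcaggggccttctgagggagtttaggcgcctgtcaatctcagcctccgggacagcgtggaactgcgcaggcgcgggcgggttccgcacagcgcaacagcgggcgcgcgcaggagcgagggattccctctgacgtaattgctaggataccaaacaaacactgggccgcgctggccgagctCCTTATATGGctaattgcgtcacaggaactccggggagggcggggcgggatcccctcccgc
The CArG box, printed here on the gene's strand, was centred 262 bp upstream of the start and fell in the summit window of all 4 libraries.

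The Fosb surroundings changed little and in both directions. The region 10.0 kb upstream (chr7:19319867-19320277, overlapping an exon of D830036C21Rik) had fold enrichments of 12.2, 14.8, 16.0 and 12.2 and scaled pileups of 1.23, 1.37, 2.08 and 1.42. Its log2 difference of 0.43 (pairs 0.05 to 0.76) rested on d4 replicate 1, without which it stood 0.06 above the median of all shared regions. The pair of regions 17.3 and 16.5 kb upstream (in an intron of D830036C21Rik) were the only shared AP-1 regions with both d2 libraries higher. Their scaled pileups were 0.818, 0.852, 0.800 and 0.750, and 0.955, 0.926, 0.800 and 0.875, with log2 differences of -0.11 and -0.17. AP-1 letters, TGACTCA, lay 50 bp from the summit of the farther region. The region at 1.1 kb downstream of a second Fosb start had scaled pileups of 0.864, 1.33, 1.24 and 1.29, and the time points overlapped. A region 5.6 kb downstream of that start was called in d2 replicate 1 only (fold enrichment 6.39).

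Fosl1, which encodes FRA1, was the reverse of Junb. Its only region, at its start (ENSMUSG00000024912.6, plus strand; chr19:5447548-5447872, reaching its 5' UTR), had fold enrichments of 9.44 and 6.59 at d2 and no peak at d4. Summit pileups at d2 were 18 (95% Poisson interval 10.7 to 28.4) and 12 (6.20 to 21), or 0.818 and 0.444 when scaled. The smallest pileup called anywhere at d4 was 7 in both libraries, or 0.280 and 0.292 when scaled, and the nearest d4 peaks were too far to give the local limit. With -log10 q of at least 10, or among the top 15000 peaks of each list, the region was left in 1 d2 library only. No sequence is printed for it, because most of the window is transcribed.

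Fosl2, which encodes FRA2, had a shared start region and a pair of weak ones. The start region (ENSMUSG00000029135.10, plus strand; chr5:32135173-32136015) had fold enrichments of 5.10, 6.34, 5.64 and 4.74. Its scaled pileups of 0.591, 0.630, 0.960 and 0.708 were higher in both d4 libraries, with a log2 difference of 0.45 (pairs 0.17 to 0.70). The AP-1 letters TGACTCA lay 56 bp downstream of the start, outside the summit window. The regions 2.7 and 1.9 kb upstream were called in d4 replicate 1 only, at fold enrichments of 5.23 and 4.29.

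**Figure D4:**
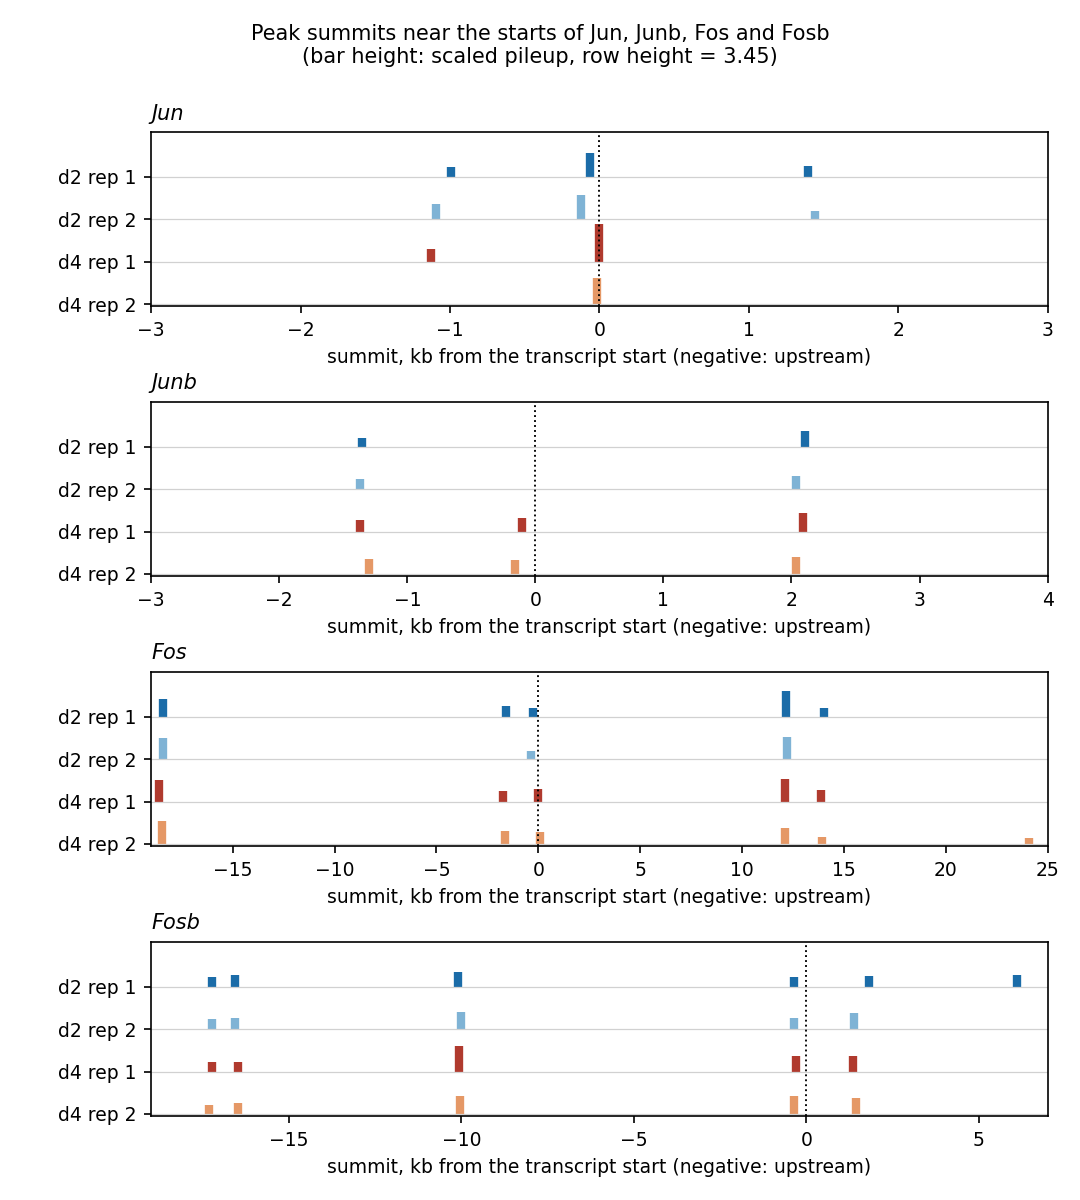
Peak summits by distance from the transcript start in kb (x axis, negative upstream) for Jun, Junb, Fos and Fosb, with a row for each library and bar height giving the scaled pileup. The Junb start has a summit in the d4 rows only, and the Fos start summits lie 281 and 333 bp upstream at d2 and within 64 bp of the start at d4; the Jun regions more than 3 kb from the start are outside the map.

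Atf3, a stress-induced gene whose protein pairs with JUN proteins and often represses, had 4 regions. The region at its downstream start (ENSMUSG00000026628.13, minus strand) was chr1:191183092-191183667 and reached its 5' UTR. Its fold enrichment was 5.92 and 7.74 at d2 and 8.02 and 7.53 at d4. Summit pileups were 19, 27, 32 and 26, and scaled pileups were 0.864, 1.0, 1.28 and 1.08. Both d4 scaled values lay above both d2 values, by a log2 difference of 0.34 (pairs 0.12 to 0.57), whereas the unscaled folds and pileups of the time points overlapped. The promoter sequence is shown with its GATA site, TGATAA, in capitals, 186 bp upstream of the start. It is chr1:191183402-191183701 on the minus strand.
Atf3 promoter: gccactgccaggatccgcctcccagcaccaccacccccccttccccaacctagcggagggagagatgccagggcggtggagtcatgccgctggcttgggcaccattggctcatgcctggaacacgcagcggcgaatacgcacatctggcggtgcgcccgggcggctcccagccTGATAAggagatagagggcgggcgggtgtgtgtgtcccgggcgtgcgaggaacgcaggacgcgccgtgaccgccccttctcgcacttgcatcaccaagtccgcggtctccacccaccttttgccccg
The region 6.5 kb upstream of the upstream Atf3 start (chr1:191224017-191225029, overlapping an exon of D730003I15Rik) had fold enrichments of 7.15, 11.2, 8.61 and 10.6. Its scaled pileups were 0.636 and 0.889 at d2 and 0.840 and 0.917 at d4, and the time points overlapped (log2 difference 0.20, pairs -0.08 to 0.53). It held TGACTCA, 35 bp from the summit. The region 41.2 kb upstream of that start (8.15 in d4 replicate 1) and the region 0.8 kb downstream of the downstream start (5.24 in d2 replicate 1) were called in 1 library.

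Over the 15 shared regions of the 8 genes, the median log2 difference of d4 over d2 was 0.30, with a range of -0.34 to 0.64, where all 11189 shared regions had a median of 0.05. In 10 of the 15, or 66.7%, both d4 libraries were higher, against 29.5% of all shared regions. In 2 of the 15, or 13.3%, both d2 libraries were higher, against 21.1%. The direction depends on the scale. With pileups divided by the genome-wide background, the median of the 15 was -0.21 and that of all shared regions was -0.48. The AP-1 regions thus stood 0.27 above the latter instead of 0.25. On this scale none had both d4 libraries higher, against 4.18% of all shared regions. Both d2 libraries were higher in 3 of the 15, against 54.6%. With unscaled fold enrichment, the median of the 15 was -0.04 against -0.10 for all, so the AP-1 regions stood only 0.06 above it. By fold, 1 of the 15 had both d4 libraries higher, against 13% of all shared regions. Both d2 libraries were higher in 4 of the 15, against 30.4%. The larger share of AP-1 regions with both d4 libraries higher was thus not seen with fold enrichment. Relative to the median of all shared regions, the Fosb and Fos promoters were at 0.57 and 0.43 with genome-background scaling and at 0.45 and 0.11 with fold enrichment, whereas Jun at its start was at 0.36 and then -0.08.

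**Figure D5:**
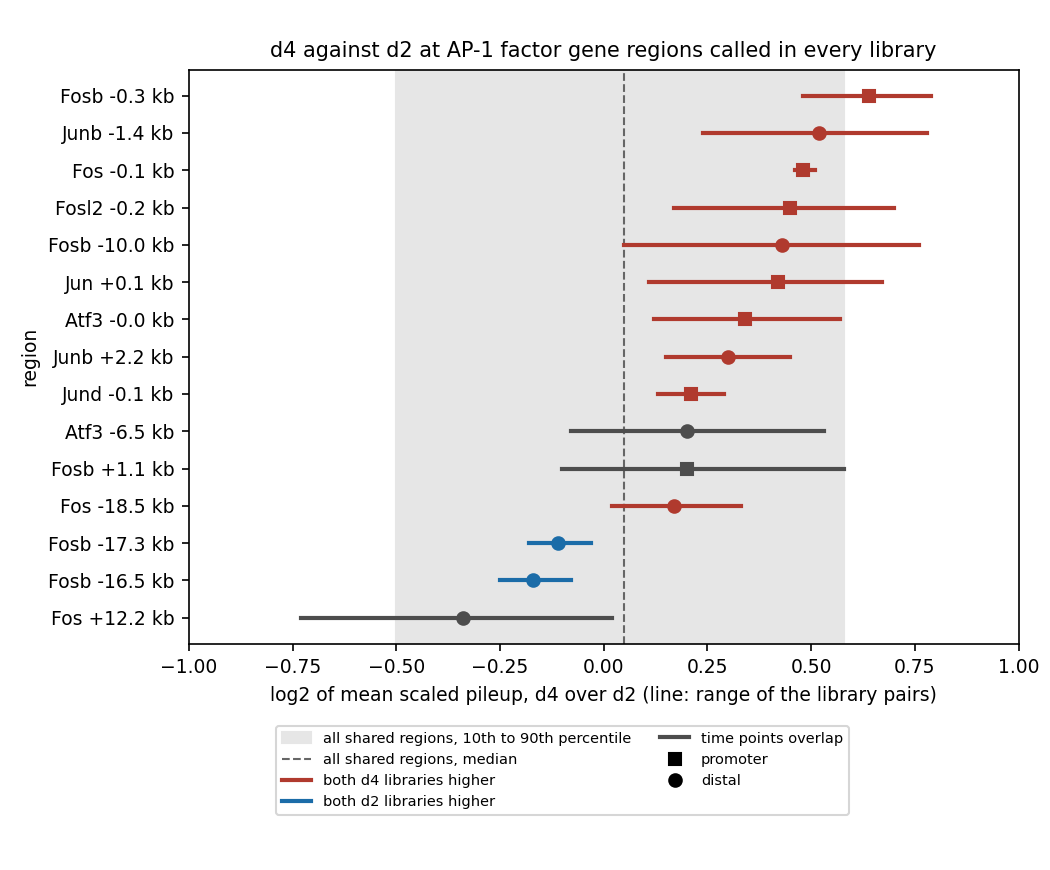
Log2 of the mean scaled pileup at d4 over d2 (x axis) for the 15 regions of AP-1 factor genes called in all 4 libraries (rows), with the range of the library pairs as a line, squares for promoters and circles for distal regions. The grey band is the 10th to 90th percentile of all shared regions (-0.50 to 0.58), the dashed line their median of 0.05, and Fosb just upstream of its start (0.64) is the only region outside the band.

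By scaled pileup, Jun and Jund led the order of the start regions at both time points, with the region just upstream of Fosb counted as its start. At d2 the scaled means were 1.94 for Jun, 1.46 for Jund, 0.932 for Atf3, 0.854 for Fosb, 0.715 for Fos, 0.631 for Fosl1 and 0.610 for Fosl2. Neighbours from Atf3 to Fosb, from Fos to Fosl1 and from Fosl1 to Fosl2 overlapped in their libraries. At d4 they were 2.58 for Jun, 1.69 for Jund, 1.33 for Fosb, 1.18 for Atf3, 1.12 for Junb, 1.0 for Fos and 0.834 for Fosl2, and Fosb, Atf3 and Junb overlapped as neighbours. These are heights at a summit, not sums over a region.

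Some promoters followed nearly the same course over the 4 libraries as Jun, Fos and Atf3. Likeness was the Euclidean distance of the 4 log2 scaled pileups, each centred on its gene's mean, over 8953 genes with a promoter region in all 4 libraries. The nearest to Jun were Prdm2 (0.0459), Zfp82 (0.0459) and Mrpl2 (0.0595). The nearest to Fos were Epn1 (0.0268), Rdh13 (0.0275) and Slc6a6 (0.0281). The nearest to Atf3 were Nr6a1 (0.0296), Gpr37 (0.0378) and Cenpm (0.0384). Each distance rests on 4 values.

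Letters bound by AP-1 and its relatives were found under a few of the 32 regions. TGANTCA was found, on either strand, around the highest summit of 2 of the 21 distal regions and none of the 11 promoter regions, where 10.8% of all distal and 3.84% of all promoter windows hold it. The CRE-like TGACATCA was found at 2 distal regions (Jun and Fos) and 1 promoter region (Jun), against 2.04% and 1.25%. The full CRE was found at no distal region and 1 promoter region (Jund), against 0.691% and 3.04%. A CArG box was found at 2 distal regions (Junb and Fos) and 1 promoter region (Fosb), against 1.73% and 1.02%. The start region of Fos also holds a CArG box and that of Fosl2 holds TGACTCA, but both lie outside the window of the highest summit. GATA letters were found at 2 distal and 2 promoter regions, against 27.3% and 6.48%. ETS letters (CCGGAA) were found at 5 distal regions and no promoter region, against 7.13% and 23.7%, and TEAD letters (GGAATG) at 1 and none, against 20.1% and 9.98%. GC boxes (GGGCGG) were found at 13 of the 21 distal regions, where 20.4% of all distal windows hold one, and at 9 of the 11 promoter regions, against 67.7%. Under these regions no AP-1, CRE, CRE-like, CArG, ETS or TEAD match overlapped another of them.

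Genes around the AP-1 factors were described with lists taken from general knowledge. Of 75 regions at bZIP partners, genes whose proteins can pair with AP-1 or bind related sites, 11 were gained, 7 lost and 24 shared, or 14.7%, 9.33% and 32.0%. Over all regions the shares were 8.48% gained, 13.2% lost and 31.9% shared, so the partners were shared about as often as any region. Bach2, a repressor that pairs with small MAF proteins, had 5 gained regions of 10. Crem, a CREB relative, had 2 gained of 3. MAP kinases and the dual-specificity phosphatases that switch them off had 5 gained, 13 lost and 21 shared of 76, or 6.58%, 17.1% and 27.6%, and Map3k1, an upstream kinase of JNK, had 2 lost of 7. SRF and its cofactors had 2 gained, 2 lost and 8 shared of 21, or 9.52%, 9.52% and 38.1%, and Elk3 had 2 lost of 4.

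Other immediate early genes had 15 gained, 16 lost and 32 shared regions of 120, or 12.5%, 13.3% and 26.7%. Klf6 and Ccn1, the latter a matricellular protein gene, had 4 gained and 1 lost of 8 each. Sgk1, a kinase gene, had 2 gained of 7, and Myc had 2 lost of 6. Textbook AP-1 targets had 11 gained, 9 lost and 11 shared of 55, or 20.0% against 8.48% gained, 16.4% against 13.2% lost and 20.0% against 31.9% shared. Cd44, a hyaluronan receptor gene, had 3 gained of 4 while Mmp2, a matrix protease gene, had 2 lost of 5. No test was made of these lists. The AP-1 genes had the highest share of shared regions of the 6 lists, at 46.9%, where the others ran from 20.0% to 38.1%.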

How the data were processed

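ATAC-seq peak lists of 4 libraries of differentiating mESCs were used, 2 per time point, grouped by their labels. Per the study's methods, the authors used cutadapt for trimming and Bowtie2 for alignment to mm10, discarded duplicates as well as mitochondrial and multimapping reads, and ran MACS2 separately per library; the submitters' processing notes name the same tools. The methods name both paired-end mode and a read shift and extension, so whether a pileup counts fragments or extended reads was not tested. In the deposited lists the fold enrichment is a ratio of pileup to local background at the summit, with the same constant added to both. Folds are therefore lowered most where the background is low. The p-value and q-value are given by the authors as −log10 values. The highest q was 0.000996.

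The summit pileup was solved from fold and −log10 p, with 1 as that constant and with whole pileups for 100% of peaks (tolerance 0.01). The steps were tested on simulated data. Pileups were divided by the median over regions called in all 4 libraries. Regions sharing at least 1 bp were merged and assigned with GENCODE release M 21, and sequences came from GRCm38 (the build of mm10). All coordinates are 1-based. Matches to 10 motif patterns were sought on either strand, up to 150 bp from the highest summit.

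All 32 regions of the 8 genes are described. Of 5 other lists, up to 4 genes with gained and lost counts at least 2 apart were named, except for a result that is not reported here. Sequences shown are gained promoter and distal regions, the Jun, Fos and Atf3 promoters and the shared regions at both ends of the difference; the stretch around the d2 summit at Fos was added after the values were seen. The limit for a library without a peak is the smallest pileup it called at a background within 10% of that of its nearest peak within 5 kb, or anywhere in the list. The genes and lists were chosen with earlier results of these data known. Alternatives changed overlap, thresholds, merging, assignment, promoter width, scaling and libraries. Python 3.11.15, pandas 2.3.3, scipy 1.17.1 and pysam 0.24.0 were used.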

Additional observations from a re-analysis of the deposited data

How the results depend on the processing

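No paired analysis was possible because neither the labels nor the study's methods match replicate numbers across the time points. With −log10 q of at least 5 the lost regions numbered 1, and with at least 10 they numbered 0, with 7 shared regions, 0 lost promoters and 2 shared promoters. Among the top 15000 peaks of each list there were 0 lost and 8 shared regions, and 2 gained, 0 lost and 2 shared promoters. With starts of any gene type the genes kept 19 regions, 1 of them gained and 1 lost, since antisense and other noncoding genes lie nearer to the rest. A 50 kb limit left 1 gained region and no limit gave 4, and promoters within 2500 bp included 2 lost ones. Starts of all transcripts of protein-coding genes, an alternative chosen after seeing the data, moved no count by over 1.5 times, nor did 50% coverage or merging within 500 bp. Leaving out a library, which also loosens the rule for the classes, gave 2 to 5 gained and 2 to 8 lost regions, with 1 to 2 lost promoters. Shared regions ran from 15 to 17.

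With genome-background scaling the median log2 difference was -0.21 with 0 regions higher in both d4 libraries, and with unscaled fold enrichment it was -0.04, with 1 higher at d4 and 4 at d2. Relative to the median of all shared regions, 3 starts or regions turned negative on the unscaled fold: Jun at its start (-0.08), Fosl2 at its start (-0.04) and Fos 18.5 kb upstream (-0.22), which ran from -0.04 to 0.26 when a library was left out, the lowest without d2 replicate 1. The cause was not tested. Leaving out a library kept the median between 0.21 and 0.45. Peak lists give no level under the threshold, so a missing peak bounds a region only roughly and does not show closed chromatin. Pileups of 6 to 20 carry wide counting intervals.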
